A study of Mus musculus with 24 samples.

Results

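Integrin and laminin subunits were described in whole mouse liver and in cultured primary hepatocytes lacking NEMO, KEAP1 or both. The members were all genes whose single annotated symbol is an integrin alpha or beta subunit or a laminin chain, without binding proteins such as Itgb1bp1. This gave 37 of 18820 measured genes: 18 integrin alpha subunits, 9 integrin beta subunits including Itgb2l, and 10 laminin chains. The members were chosen by gene name and not by a threshold on their values. On the log2 scale, 25 members averaged at least 4 over all arrays, 23 did so in hepatocytes and 26 in liver, while Itgae, Itgb2l and Itgb6 were under 4 on every array. No filter on low values was applied, so all 37 were tested.

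The 24 arrays, each a 1-colour Affymetrix measurement, covered 4 genotypes in 2 sources. Each of the 8 groups had 3 arrays, labelled replicates 1 to 3. The labels do not say whether same-numbered liver and hepatocyte arrays came from the same mouse. All mice were labelled as males aged 8 weeks. The NEMO knockout mice had floxed NEMO deleted by Alfp-Cre, a Cre transgene under albumin and alpha-fetoprotein regulatory elements that acts in the hepatocyte lineage. The KEAP1 knockout mice had floxed KEAP1 deleted by the same Cre, and the double knockout mice came from crossing both knockouts. The control mice were NEMO-floxed (NEMOf/f), so no control carried a floxed KEAP1 gene. Hepatocytes were released by collagenase perfusion, left to attach in serum-containing medium overnight and then given new medium. NEMO is a non-catalytic part of the kinase complex that switches on NF-kB, and KEAP1 marks the antioxidant transcription factor NRF2 for degradation.

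Integrins are membrane receptors built of 1 alpha and 1 beta subunit, which tie the cytoskeleton to matrix proteins or to receptors on other cells. Itgb1 pairs with the collagen, laminin and fibronectin receptor alpha subunits, Itgav pairs with several beta subunits, and Itgb2 pairs with the leukocyte alpha subunits Itgal, Itgam, Itgax and Itgad. Laminins are trimers of an alpha, a beta and a gamma chain that form the sheet of basement membranes. In liver the perisinusoidal space lacks a continuous basement membrane in the healthy state, and stellate cells, endothelium and bile ducts are known sources of matrix.

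Genes outside the family put 4 of the 24 arrays in doubt. The array labelled liver control 3 had the NRF2 targets Nqo1 at 9.17 and Slc7a11 at 9.29, against 4.71 and 5.37 for Nqo1 and 2.63 and 2.42 for Slc7a11 on liver controls 1 and 2. The library labelled liver double knockout 3 held Adipoq at 7.17, Ucp1 at 6.74 and Krt7 at 7.81, transcripts of fat and bile duct cells. Hepatocyte double knockout 3 and hepatocyte control 1 had Xist at 9.76 and 9.65 and Eif2s3y at 2.71 and 2.51, against the male label. Ikbkg, the gene of NEMO, was at 6.26, 6.27 and 6.60 in NEMO knockout hepatocytes and at 6.01 to 6.29 in double knockout hepatocytes, against 6.63 to 6.69 in control hepatocytes. In liver it was at 6.14 to 6.26 in NEMO knockouts and 6.18 to 6.47 in double knockouts, against 6.86 and 6.81 on controls 1 and 2 and 6.40 on control 3. Counts of members called in each comparison are given with and without the 4 doubted arrays. Most changes of single genes and most marker counts are given one way only. In hepatocytes and between sources that is with all arrays, and in liver it is without the 4. Without them, 2 arrays remain for double knockouts and for controls in each source. Differences were tested with limma, adjusted by Benjamini-Hochberg over all 18820 genes and called at an adjusted p under 0.05. Each fold change is a log2 difference with the standard error of the fit, and p-values measure the spread between these arrays.

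**Figure D1:**
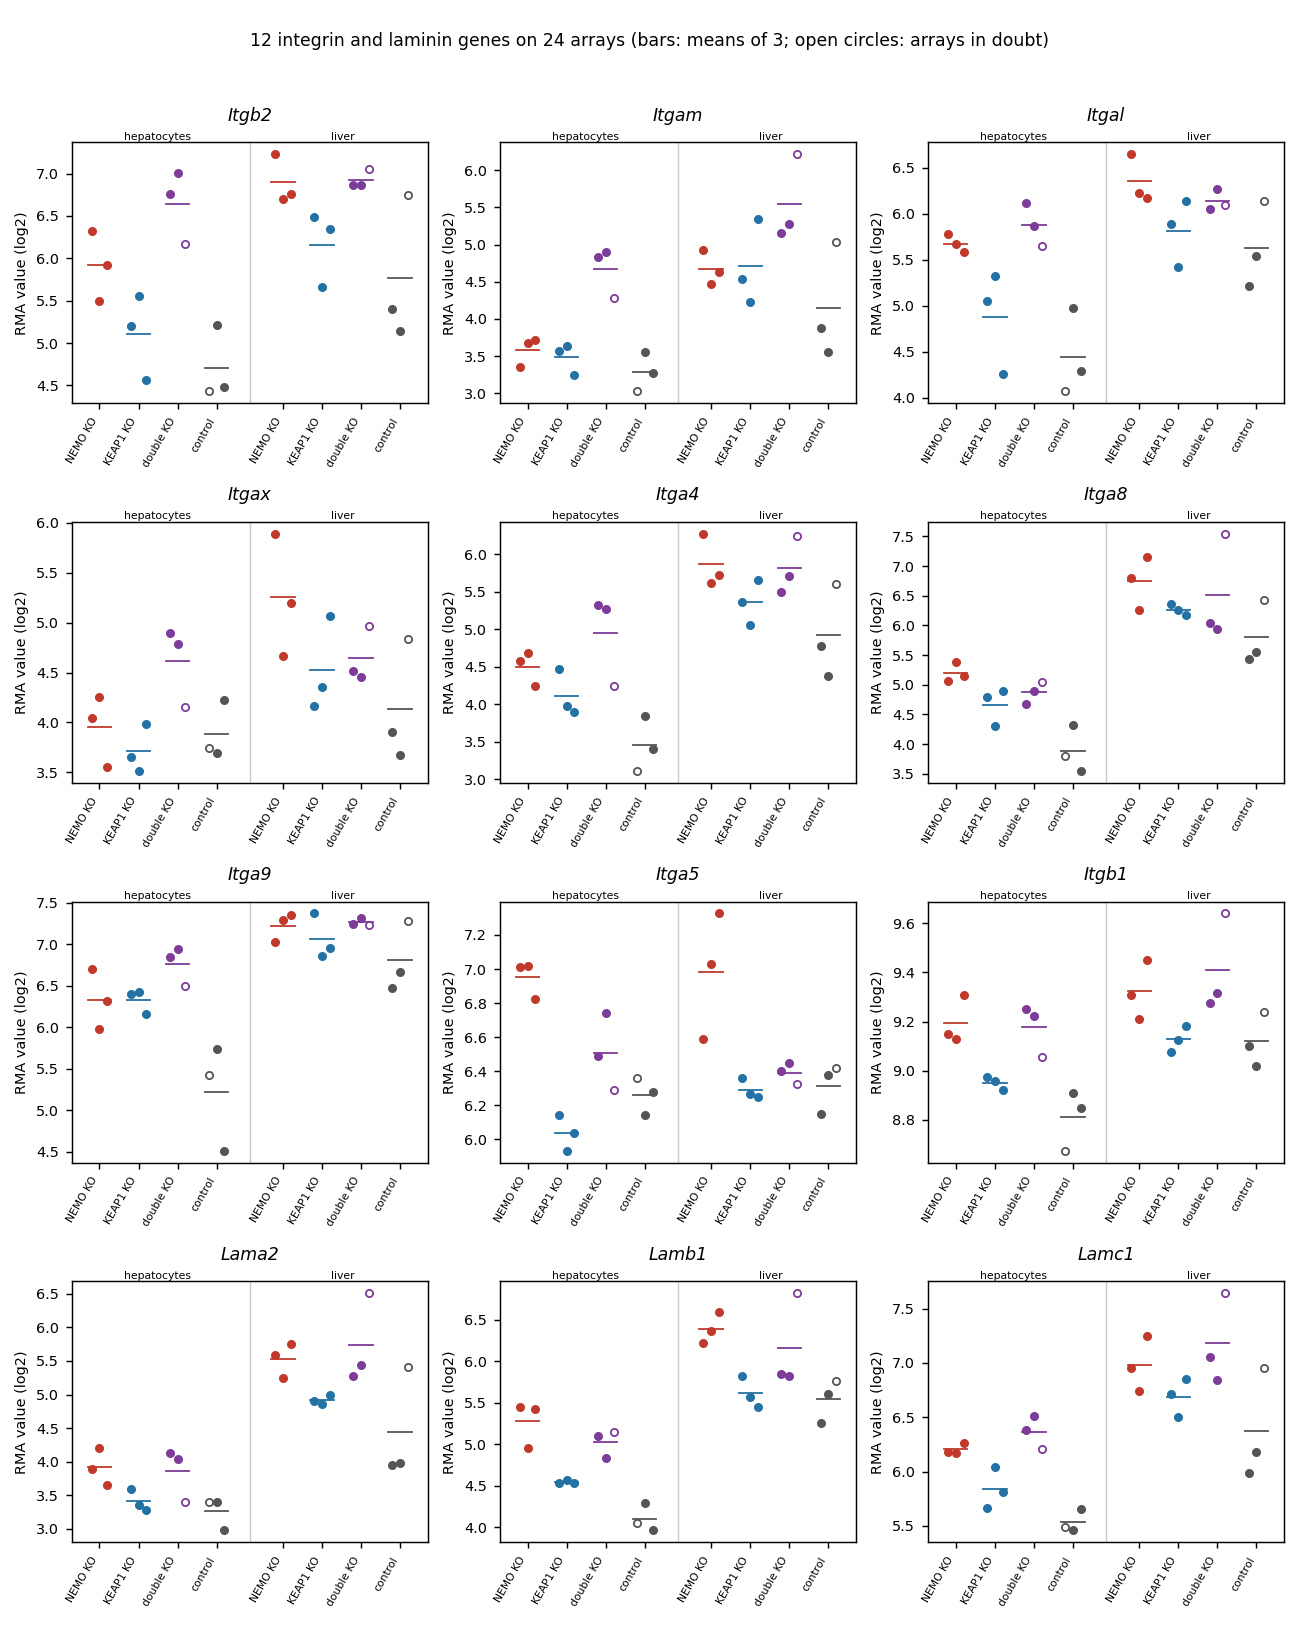
Log2 values of members on each array, hepatocytes left of liver and NEMO knockout, KEAP1 knockout, double knockout and control from left to right in each; open circles are the 4 arrays in doubt. Itgam stood at 4.28 to 4.90 on the double knockout hepatocyte arrays and at 3.03 to 3.56 on the control hepatocyte arrays.

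In cultured hepatocytes, laminin chains, matrix receptor subunits and leukocyte integrins were among the members higher in NEMO knockout and in double knockout cells than in control cells. Of the 37 members, 12 rose and 0 fell in NEMO knockout hepatocytes, where calls of all genes came to 4.61% higher and 2.05% lower. In double knockout hepatocytes 13 members rose and 0 fell, where they came to 6.73% higher and 2.99% lower. In KEAP1 knockout hepatocytes limma called 0 members and 1.87% of all genes in either direction, and 7 members and 13.6% of all genes had an unadjusted p under 0.05. The median change over the 37 members was 0.30 in NEMO knockout, 0.10 in KEAP1 knockout and 0.25 in double knockout cells, beside -0.02, -0.0033 and -0.03 over all genes. Without the doubted arrays 9 members rose in NEMO knockout cells, where 4.14% of all genes were called higher and 1.45% lower, and 12 rose and 1 fell in double knockout cells, where 6.44% were called higher and 2.79% lower. In KEAP1 knockout cells limma then called 0 members and 1.82% of all genes, and 7 members and 12.8% of all genes had an unadjusted p under 0.05. These comparisons share their control arrays.

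**Figure D2:**
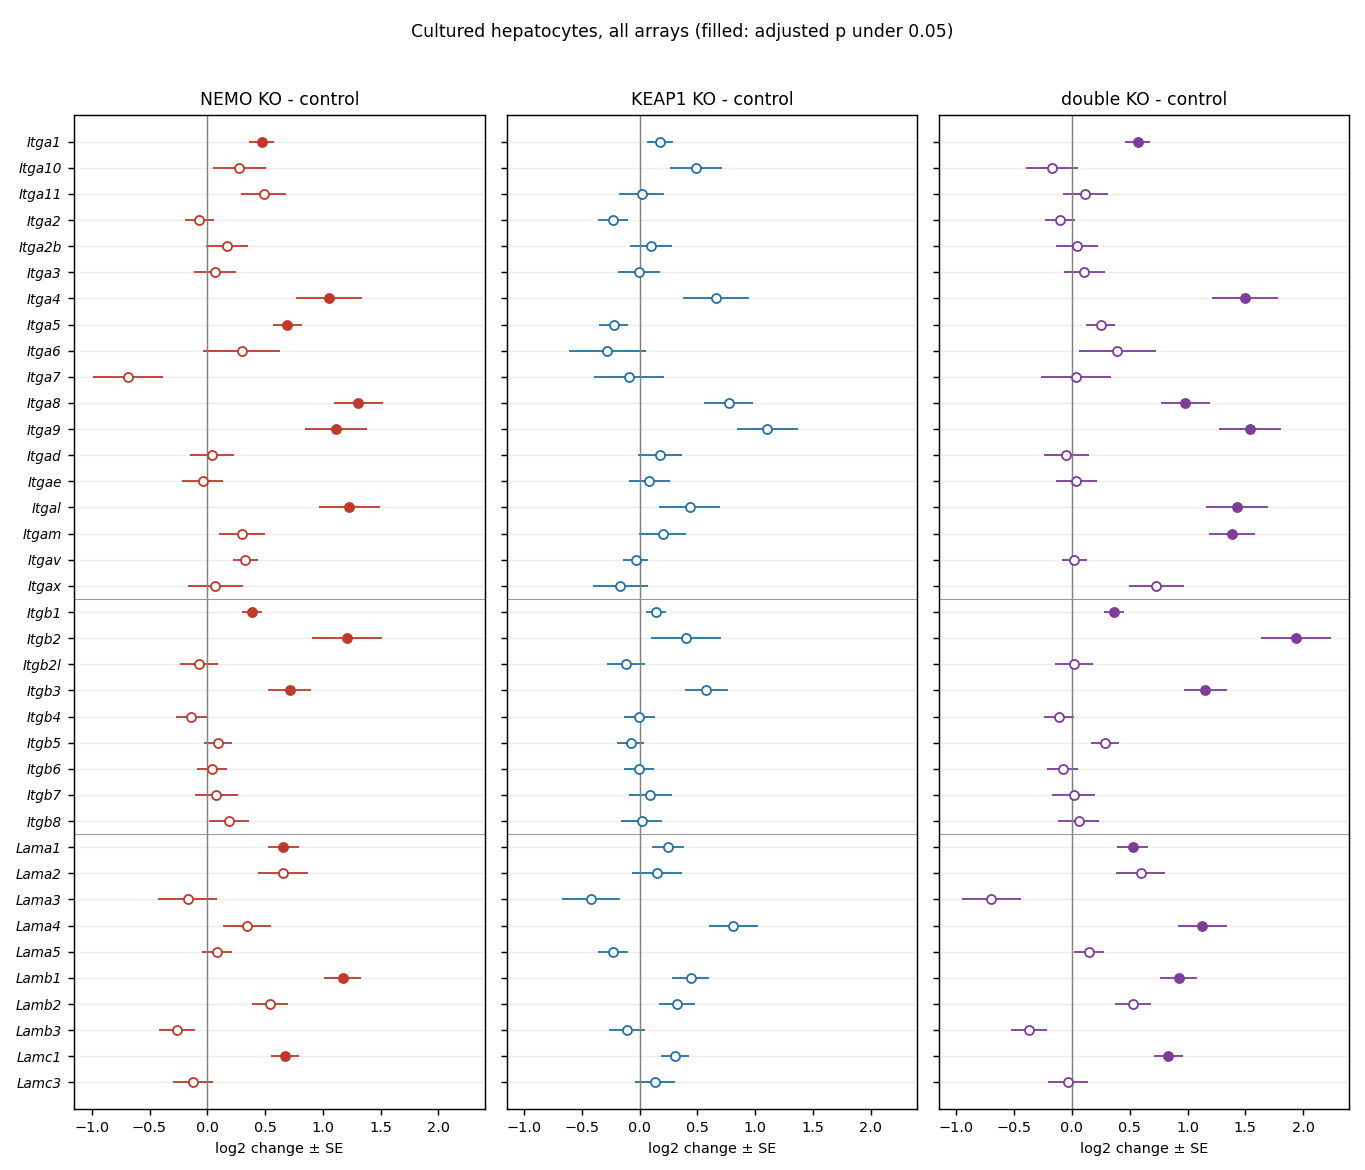
Log2 change of every member in knockout over control hepatocytes with its standard error, all 3 arrays per group, one panel per genotype; filled symbols mark members called by limma at an adjusted p under 0.05. The NEMO knockout panel has 12 called members, the KEAP1 knockout panel 0 and the double knockout panel 13.

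Promoter sequences from the RefSeq table of assembly GRCm38.p6 were read for some members called in NEMO or double knockout hepatocytes. Each one shown has a window of 250 bases before the annotated start that lies wholly outside the annotated gene. The windows of the called members Itga8, Itga9, Lama2 and Lamb1 overlap the annotated gene and are not shown. Only 24 of the 37 members had a window in that table. The windows shown on the plus strand are Itgam at chr7:128062390-128062639, Itga4 at chr2:79255176-79255425 and Itgb1 at chr8:128685404-128685653. Those on the minus strand are Itga1 at chr13:115101965-115102214 and Itga5 at chr15:103366792-103367041. Capitals mark the letters GAGGAA, the core that the myeloid factor PU.1 binds, or TGACNNNGC, the core of the NRF2 element, on either strand, so that TTCCTC is GAGGAA read on the opposite strand. The sequences run 5′ to 3′ on the strand of the gene.
Itgam: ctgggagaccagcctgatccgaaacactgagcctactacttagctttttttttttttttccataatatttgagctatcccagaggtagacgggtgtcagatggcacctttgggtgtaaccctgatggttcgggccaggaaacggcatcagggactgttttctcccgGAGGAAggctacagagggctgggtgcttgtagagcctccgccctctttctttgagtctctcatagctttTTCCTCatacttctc
Itga4: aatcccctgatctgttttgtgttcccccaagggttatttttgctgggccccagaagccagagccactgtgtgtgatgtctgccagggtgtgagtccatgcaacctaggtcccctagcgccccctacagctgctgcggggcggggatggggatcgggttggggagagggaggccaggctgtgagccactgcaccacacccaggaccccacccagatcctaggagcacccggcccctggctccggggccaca
Itga1: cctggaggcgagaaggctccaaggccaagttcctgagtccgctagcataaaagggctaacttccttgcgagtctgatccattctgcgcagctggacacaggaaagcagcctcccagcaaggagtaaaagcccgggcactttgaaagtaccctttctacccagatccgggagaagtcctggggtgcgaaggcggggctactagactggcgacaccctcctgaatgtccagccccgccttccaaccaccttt
Itga5: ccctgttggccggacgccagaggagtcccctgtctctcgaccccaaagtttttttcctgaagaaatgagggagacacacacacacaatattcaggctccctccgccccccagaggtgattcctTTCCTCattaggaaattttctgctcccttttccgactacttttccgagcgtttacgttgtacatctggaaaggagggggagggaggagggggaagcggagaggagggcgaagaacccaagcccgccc
Itgb1: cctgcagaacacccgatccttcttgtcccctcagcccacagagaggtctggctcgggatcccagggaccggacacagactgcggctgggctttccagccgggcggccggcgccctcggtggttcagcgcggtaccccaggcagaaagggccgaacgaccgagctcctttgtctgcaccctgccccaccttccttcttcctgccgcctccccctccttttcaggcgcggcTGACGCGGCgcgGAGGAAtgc
Itgam held GAGGAA once on each strand, Itga5 once, and Itgb1 held both motifs, while neither set of letters was in the Itga4 and Itga1 windows. GAGGAA was in 14 of the 27 windows that 24 members had and in 23.3% of the 32851 windows of all genes. TGACNNNGC was in 3 of the 27 and in 10.2% of all windows. A match is a run of letters and no test of binding.

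Among the laminins, Lamb1 and Lamc1, the beta and gamma chains of the most widespread trimers, rose in both NEMO-deficient hepatocyte groups. Lamb1 was at 5.45, 4.96 and 5.43 in NEMO knockout and at 5.11, 4.84 and 5.15 in double knockout hepatocytes, against 4.06, 4.30 and 3.96 in control hepatocytes. All 6 NEMO-deficient arrays lay above the 3 controls. The change was 1.17 ± 0.16 in NEMO knockout (adjusted p = 0.000612) and 0.92 ± 0.16 in double knockout cells (adjusted p = 0.0021). Lamc1 was at 6.18, 6.17 and 6.26 in NEMO knockout and at 6.38, 6.51 and 6.20 in double knockout cells, against 5.49, 5.46 and 5.65 in control cells. Again no NEMO-deficient array overlapped the controls, with changes of 0.67 ± 0.12 in NEMO knockout (adjusted p = 0.00469) and 0.83 ± 0.12 in double knockout cells (adjusted p = 0.000702). Both chains were called in both comparisons without the 4 doubted arrays and when any single array of the fit was left out.

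The alpha chains that join Lamb1 and Lamc1 differed by genotype in which were called. Lama1, the alpha chain of embryonic laminin, was at 4.57, 4.49 and 4.68 in NEMO knockout and at 4.50, 4.27 and 4.59 in double knockout hepatocytes, against 3.92, 3.91 and 3.95 in control hepatocytes. It rose by 0.66 ± 0.14 in NEMO knockout (adjusted p = 0.00994) and 0.53 ± 0.14 in double knockout cells (adjusted p = 0.0271). The double knockout change was 0.46 with an adjusted p of 0.155 without the doubted arrays. Lama4, the alpha chain of vessel and stromal laminins, was at 5.39, 5.39 and 5.28 in double knockout hepatocytes, against 4.49, 4.43 and 3.75 in control hepatocytes, and rose by 1.13 ± 0.21 (adjusted p = 0.00355). It was at 4.86, 5.42 and 4.82 in KEAP1 knockout cells (0.81 ± 0.21, adjusted p = 0.0725) and at 4.78, 4.45 and 4.47 in NEMO knockout cells (0.34 ± 0.21, adjusted p = 0.409). All double and KEAP1 knockout arrays lay above the controls, while 2 NEMO knockout arrays lay within the range of the controls. Double knockout against NEMO knockout gave 0.78 ± 0.21 for Lama4 with an adjusted p of 0.0613.

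Lama2, the alpha chain of muscle and stromal laminin, differed from control by 0.66 in NEMO knockout hepatocytes (adjusted p = 0.0949) and 0.59 in double knockout hepatocytes (adjusted p = 0.109). It was called in the double knockout without the doubted arrays, at 0.90 (adjusted p = 0.0248). Lama3, the epithelial alpha chain of anchoring laminins, was the called laminin that ran the other way. It was at 3.70, 3.55 and 3.45 in double knockout hepatocytes, against 3.71, 4.81 and 4.27 in control hepatocytes, a change of -0.70 ± 0.25 (adjusted p = 0.112) with all arrays and -0.91 ± 0.26 (adjusted p = 0.0476) without the doubted ones. Lamb2 differed from control by 0.54 ± 0.16 in NEMO knockout cells (adjusted p = 0.0582) and 0.53 ± 0.16 in double knockout cells (adjusted p = 0.0513), on the uncalled side of the threshold. Lama5, Lamb3 and Lamc3 were called in neither comparison.

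Of the subunits that pair with Itgb1, the collagen receptor subunit Itga1 rose in both NEMO-deficient groups. It was at 7.22, 7.14 and 7.27 in NEMO knockout and at 7.31, 7.21 and 7.40 in double knockout hepatocytes, against 6.79, 6.71 and 6.72 in control hepatocytes. The groups were tight and apart, with changes of 0.47 ± 0.11 in NEMO knockout (adjusted p = 0.0187) and 0.57 ± 0.11 in double knockout cells (adjusted p = 0.0043). Itgb1 itself moved by less, at 9.15, 9.13 and 9.31 in NEMO knockout and 9.25, 9.22 and 9.06 in double knockout cells, against 8.67, 8.91 and 8.85 in control cells. Its changes were 0.39 ± 0.09 in NEMO knockout (adjusted p = 0.0165) and 0.37 ± 0.09 in double knockout cells (adjusted p = 0.0163). A dimmer probe set of Itgb1, with a mean of 4.12 beside 9.14 for the one used, was not used. It did not show the rise. Its values were 4.03, 4.48 and 4.23 in NEMO knockout and 4.22, 4.16 and 4.05 in double knockout cells. In control cells they were 4.36, 4.42 and 3.99.

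Itga8 and Itga9, receptor subunits for nephronectin and tenascin among other ligands, had larger changes. Itga8 was at 5.06, 5.39 and 5.14 in NEMO knockout and 4.67, 4.89 and 5.05 in double knockout hepatocytes, against 3.80, 4.32 and 3.54 in control hepatocytes. It rose by 1.31 ± 0.21 in NEMO knockout (adjusted p = 0.002) and 0.98 ± 0.21 in double knockout cells (adjusted p = 0.00892). The double knockout call was lost without the doubted arrays (0.85, adjusted p = 0.0691). Itga9 was at 6.71, 5.98 and 6.32 in NEMO knockout, 6.40, 6.42 and 6.16 in KEAP1 knockout and 6.84, 6.94 and 6.50 in double knockout cells, against 5.42, 5.73 and 4.51 in control cells. Every knockout array of the 3 genotypes lay above the controls. Itga9 rose by 1.11 ± 0.27 in NEMO knockout (adjusted p = 0.0228) and 1.54 ± 0.27 in double knockout cells (adjusted p = 0.00212), while the KEAP1 knockout change of 1.11 ± 0.27 had an adjusted p of 0.0537.

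Itga5, the alpha subunit of the main fibronectin receptor, was called in NEMO knockout hepatocytes and not in the double knockout. It was at 7.01, 7.02 and 6.82 in NEMO knockout, 6.14, 5.93 and 6.04 in KEAP1 knockout and 6.49, 6.74 and 6.29 in double knockout hepatocytes, against 6.36, 6.15 and 6.28 in control hepatocytes. The NEMO knockout arrays lay above all others. The change was 0.69 ± 0.13 in NEMO knockout (adjusted p = 0.00438), -0.22 ± 0.13 in KEAP1 knockout (adjusted p = 0.484) and 0.25 ± 0.13 in double knockout cells (adjusted p = 0.269). Double knockout against NEMO knockout gave -0.44 ± 0.13, with an adjusted p of 0.0771, so the difference between these genotypes was not called. Itgb3, which pairs with Itgav and with the platelet subunit Itga2b, rose by 0.71 ± 0.19 in NEMO knockout (adjusted p = 0.0354) and 1.15 ± 0.19 in double knockout cells (adjusted p = 0.00129). The NEMO knockout call of Itgb3 was lost without the doubted arrays (0.64, adjusted p = 0.0918). Itgav differed by 0.33 ± 0.11 in NEMO knockout cells (adjusted p = 0.1), and Itga2b, which marks platelets, was called in no comparison.

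The leukocyte integrins rose furthest in double knockout hepatocytes through Itgb2, whose change exceeded that of every other member. Itgb2, the beta subunit shared by the leukocyte adhesion receptors, was at 6.33, 5.50 and 5.92 in NEMO knockout, 5.21, 5.56 and 4.56 in KEAP1 knockout and 6.76, 7.0 and 6.17 in double knockout hepatocytes, against 4.43, 5.21 and 4.48 in control hepatocytes. NEMO knockout and double knockout arrays lay above the controls, and KEAP1 knockout arrays overlapped them. It rose by 1.21 ± 0.30 in NEMO knockout (adjusted p = 0.0289) and 1.94 ± 0.30 in double knockout cells (adjusted p = 0.00104), and the KEAP1 knockout change was 0.40 ± 0.30 (adjusted p = 0.624). Itgal, the alpha subunit of the leukocyte receptor for ICAMs, was at 5.78, 5.67 and 5.58 in NEMO knockout and 6.12, 5.86 and 5.65 in double knockout cells, against 4.07, 4.98 and 4.29 in control cells. It rose by 1.23 ± 0.27 in NEMO knockout (adjusted p = 0.0133) and 1.43 ± 0.27 in double knockout cells (adjusted p = 0.00368). Without the doubted arrays the NEMO knockout changes were 1.07 for Itgb2 (adjusted p = 0.0665) and 1.04 for Itgal (adjusted p = 0.0502), both no longer called, while both double knockout calls held.

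Itgam, the alpha subunit of the complement receptor on macrophages and neutrophils, separated the double knockout from every other hepatocyte group. It was at 4.83, 4.90 and 4.28 in double knockout cells, against 3.36, 3.68 and 3.72 in NEMO knockout, 3.57, 3.64 and 3.25 in KEAP1 knockout and 3.03, 3.56 and 3.28 in control cells. No double knockout array overlapped any other group. It rose by 1.38 ± 0.20 in double knockout over control cells (adjusted p = 0.000594), and its change in NEMO knockout cells was 0.30 ± 0.20 (adjusted p = 0.46). In double knockout against NEMO knockout hepatocytes Itgam was the 1 member called, at 1.08 ± 0.20 (adjusted p = 0.0102), where 2.16% of all genes were called higher and 1.16% lower. That call was also made without the doubted arrays (1.28 ± 0.19, adjusted p = 0.00238), where 2.39% of all genes were called higher and 1.42% lower, and was lost when NEMO knockout array 1 was left out (adjusted p = 0.0516).

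Itga4, the VCAM1 receptor subunit of leukocytes, was at 4.57, 4.68 and 4.24 in NEMO knockout and 5.33, 5.28 and 4.24 in double knockout hepatocytes, against 3.11, 3.84 and 3.40 in control hepatocytes. It rose by 1.05 ± 0.28 in NEMO knockout (adjusted p = 0.0424) and 1.50 ± 0.28 in double knockout cells (adjusted p = 0.004). Its beta partner Itgb7, of gut-homing lymphocytes, was called in neither comparison. Itgax, the dendritic cell and macrophage subunit, was at 4.89, 4.79 and 4.16 in double knockout hepatocytes, against 3.74, 3.70 and 4.22 in control hepatocytes, with overlap and an adjusted p of 0.0782. Itgad and Itgae, subunits of tissue macrophages and of epithelial T cells, were not called. In double knockout against KEAP1 knockout hepatocytes 3 members rose, where 2.16% of all genes were called higher. They were Itgam (1.19 ± 0.20, adjusted p = 0.0076), Itgb2 (1.54 ± 0.30, adjusted p = 0.0165) and Lamc1 (0.53 ± 0.12, adjusted p = 0.0383). Without the doubted arrays 7 rose, where 2.83% of all genes were called higher, and Itga4, Itga5, Itgal and Itgax were the added ones.

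Leaving out single arrays changed some of these counts. In NEMO knockout against control hepatocytes 5 of the 12 calls held whichever array of the fit was left out, namely Itga5, Itga8, Lama1, Lamb1 and Lamc1. The count was 6 without NEMO knockout 1, NEMO knockout 3 or control 3, and 7 without control 1. In double knockout against control hepatocytes 11 of the 13 calls held, with Itgb1 and Lama1 as the exceptions. The count of 3 in double against KEAP1 knockout cells was 1 without double knockout 1, double knockout 2, KEAP1 knockout 1 or KEAP1 knockout 3, and 6 without double knockout 3. Calls of all genes under each left-out array are not given beside these counts. The counts therefore do not show whether a loss or gain was particular to the members.

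Markers of several other liver cells, though not of all those listed, moved with these members in the hepatocyte cultures. Of 8 stellate cell or fibroblast markers, 6 rose in NEMO knockout hepatocytes (median change 1.31) and 6 in double knockout hepatocytes (1.28). Their mean log2 level per array was 5.57 to 5.85 in NEMO knockout, 4.68 to 4.75 in KEAP1 knockout and 5.35 to 5.64 in double knockout cells, against 4.15 to 4.57 in control cells. Of 7 macrophage markers, 6 rose in NEMO knockout (1.74) and 6 in double knockout cells (2.09), with mean levels of 7.11 to 7.66, 6.09 to 6.99 in KEAP1 knockout, and 7.51 to 8.03 in double knockout, against 5.37 to 6.30 in control cells. All 6 endothelial markers rose in each of the 3 knockouts, with medians of 1.57 in NEMO knockout, 1.28 in KEAP1 knockout and 1.77 in double knockout cells. Of 3 pan-leukocyte markers, 1 rose in NEMO knockout (median 0.92) and 2 in double knockout cells (1.45). Dendritic markers averaged 3.63 to 3.90 in NEMO knockout and 3.62 to 3.90 in double knockout, against 3.35 to 3.47 in control cells. In the same order, neutrophil markers were at 3.37 to 3.74, 3.51 to 4.35 and 3.11 to 3.48. T or natural killer markers were at 2.95 to 3.30, 3.12 to 3.36 and 3.00 to 3.30. Dendritic markers thus lay above the controls in both knockouts, and neutrophil markers did so in the double knockout only. The T or natural killer, B cell, platelet, fat cell and cholangiocyte lists overlapped the controls in both knockouts. The 6 hepatocyte markers were called in no comparison with control with all arrays, at 12.29 to 12.49 on every hepatocyte array, and 1 of them fell in double knockout cells without the doubted arrays. The part of these cells in the integrin and laminin results was not tested, and in bulk samples fewer cells of a type and less RNA per cell cannot be told apart.

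**Figure D3:**
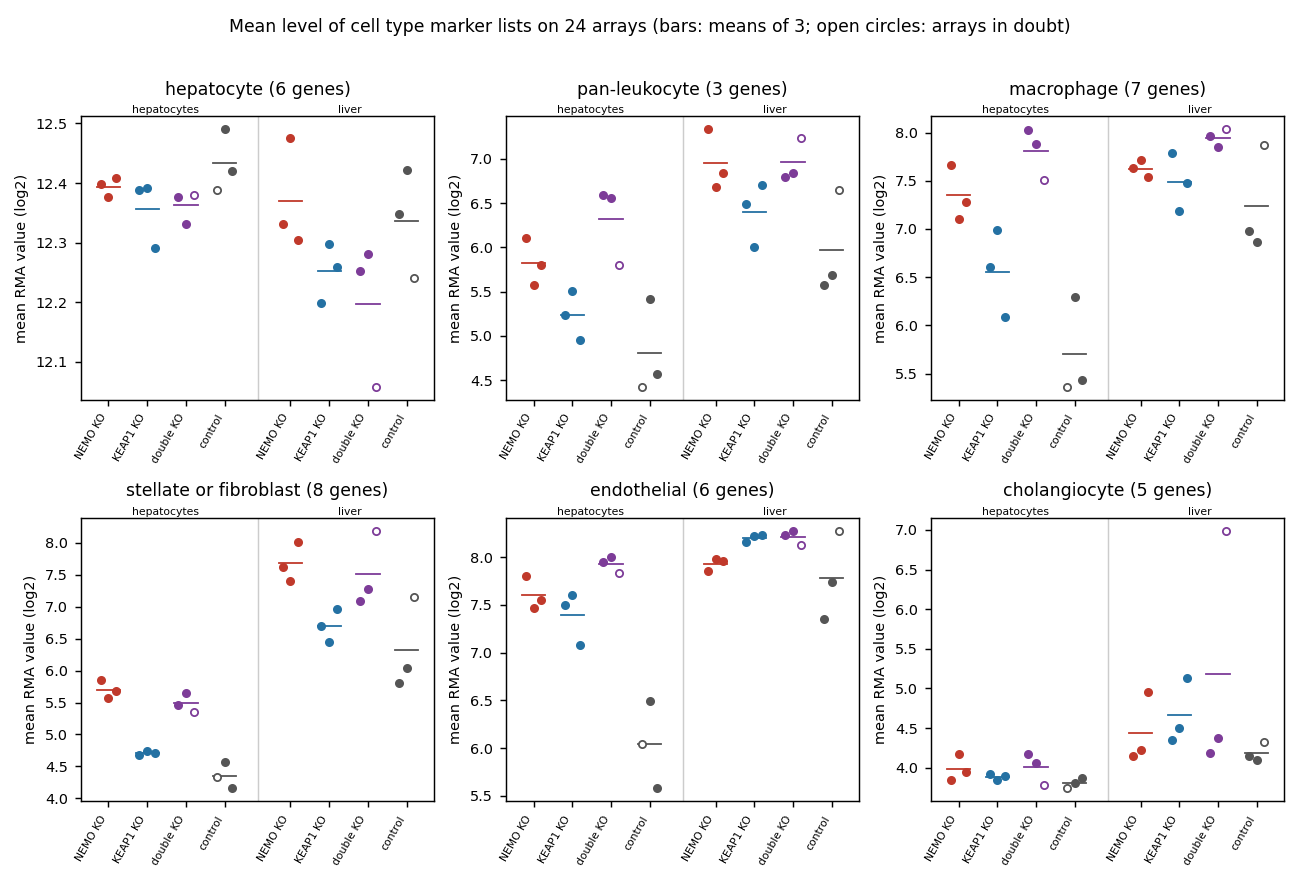
Mean log2 level of each cell type marker list on each array, hepatocytes left of liver and NEMO knockout, KEAP1 knockout, double knockout and control from left to right in each. The endothelial and stellate lists were lower on the 3 control hepatocyte arrays than on every other array, and hepatocyte markers lay between 12.06 and 12.49 on all arrays.

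The genes that work with integrins and laminins were read as 3 lists. Of 10 measured basement membrane partners, 6 rose and 1 fell in NEMO knockout hepatocytes, and 6 rose and 1 fell in double knockout hepatocytes. Sparc, a collagen-binding matrix protein, rose by 2.26 ± 0.30 in NEMO knockout (adjusted p = 0.000447), and Nid1, the nidogen that links laminin to collagen IV, by 2.19 ± 0.27 (adjusted p = 0.000285). In double knockout cells Nid1 rose by 2.71 ± 0.27 and Sparc by 2.44 ± 0.30. Of 18 integrin ligands, 8 rose in NEMO knockout, 1 rose and 1 fell in KEAP1 knockout, and 9 rose in double knockout hepatocytes. Vcam1, the ligand of Itga4 with Itgb1, rose by 1.78 ± 0.18 in NEMO knockout and 2.18 ± 0.18 in double knockout cells, and Postn, periostin, by 1.96 ± 0.23 and 2.45 ± 0.23. In KEAP1 knockout cells Postn rose by 1.14 ± 0.23 (adjusted p = 0.0225), and Fn1, fibronectin, fell, with a change of -0.44 ± 0.10 (adjusted p = 0.0449).

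Of 26 measured adhesion complex partners, which sit on the inner face of integrins, 4 rose in NEMO knockout hepatocytes and 7 rose and 1 fell in double knockout hepatocytes. They included Flna, filamin A, at 1.29 ± 0.24 in NEMO knockout and 1.48 ± 0.24 in double knockout cells, and the tetraspanin Cd9 at 1.30 ± 0.34 and 1.23 ± 0.34. Cd9 was at 5.45 on the doubted hepatocyte control 1, against 7.17 and 6.77 on controls 2 and 3. Both Cd9 changes are larger for that array. Fermt3, the kindlin of blood cells that activates integrins, rose by 1.17 ± 0.24 in double knockout cells (adjusted p = 0.00675). In double knockout against NEMO knockout hepatocytes the epithelial kindlin Fermt1 rose by 1.24 ± 0.22 (adjusted p = 0.00679) and the widespread kindlin Fermt2 fell by 0.52 on the log2 scale (SE 0.09, adjusted p = 0.00461). The only ligand called there was Npnt, nephronectin, at 0.77 ± 0.18 (adjusted p = 0.0366). In liver with all arrays Npnt was likewise higher in the double knockout than in the NEMO knockout, by 1.53 ± 0.31 (adjusted p = 0.0395). The median change in NEMO knockout hepatocytes was 0.62 over the basement membrane partners, 0.61 over the ligands and 0.06 over the adhesion partners. In double knockout hepatocytes it was 0.60, 0.62 and 0.16 for the same lists.

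In whole liver no member was called with all arrays, in any of the 3 knockouts against control. With limma and all arrays, 14 members in NEMO knockout, 1 in KEAP1 knockout and 14 in double knockout livers had an unadjusted p under 0.05, as did 18%, 7.69% and 20.7% of all genes. Calls of all genes at an adjusted p came to 1.33%, 0% and 0.00531%. Without the 4 doubted arrays, 15 members rose and 1 fell in NEMO knockout livers, where calls of all genes came to 8.48% higher and 3.55% lower. In KEAP1 knockout livers 8 rose and 1 fell, where 3.71% were called higher and 1.55% lower. In double knockout livers 7 rose and 1 fell, where 6.37% were called higher and 2.84% lower. Leaving out liver control 3 alone gave 9 calls in NEMO knockout, 1 in KEAP1 knockout and 9 in double knockout livers, where 7.49%, 2.64% and 11.7% of all genes were called. Leaving out liver double knockout 3 alone gave 4 in NEMO knockout livers, where 3.52% of all genes were called. With the replicate number as a block and all arrays, double knockout livers had 4 members called, beside 4.25% of all genes. All liver calls below are without the 4 doubted arrays, each control value being liver controls 1 and 2, and each comparison shares them.

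**Figure D4:**
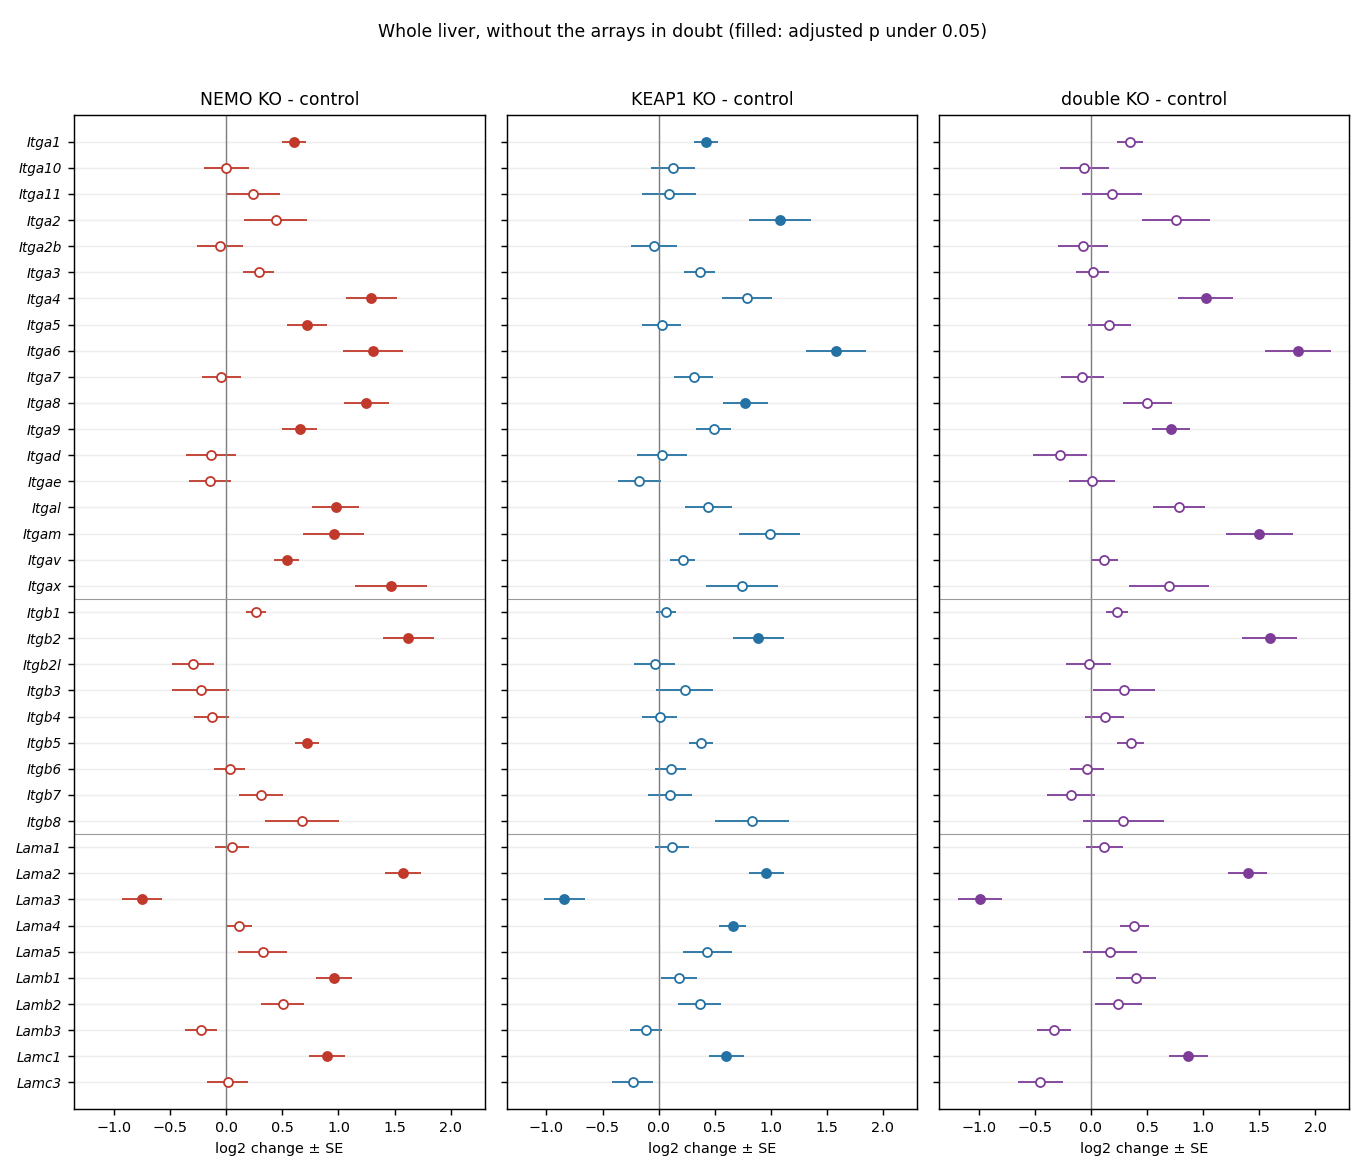
Log2 change of every member in knockout over control liver with its standard error, without the 4 arrays in doubt, one panel per genotype; filled symbols mark members called by limma at an adjusted p under 0.05. Calls number 16 in NEMO knockout, 9 in KEAP1 knockout and 8 in double knockout livers, and Lama3 is the called member below 0 in each panel.

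The 5 members called in all 3 liver knockouts were Itga6, Itgb2, Lama2, Lama3 and Lamc1. The 3 comparisons share their control arrays, and the share of all genes called in all 3 was not counted. The overlap is therefore not shown to be particular to the members. Itga6, a laminin receptor subunit, was at 5.03, 4.58 and 5.51 in NEMO knockout, 5.26, 5.74 and 4.95 in KEAP1 knockout and 5.68 and 5.48 in double knockout livers, against 3.63 and 3.84 in control livers. The array labelled control 3 was at 5.55 and double knockout 3 at 6.50. All knockout livers were above controls 1 and 2, and control 3 lay within the range of the knockouts. Itga6 rose by 1.30 ± 0.27 in NEMO knockout (adjusted p = 0.0082), 1.58 ± 0.27 in KEAP1 knockout (adjusted p = 0.00564) and 1.85 ± 0.29 in double knockout livers (adjusted p = 0.00247). Its beta partners differed. Itgb1 was called in none of them, and Itgb4, the partner in epithelial anchoring complexes, was at 5.64 on double knockout 3 and between 3.61 and 4.0 on the other 11 liver arrays.

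Lama2 was at 5.59, 5.25 and 5.75 in NEMO knockout, 4.91, 4.86 and 4.99 in KEAP1 knockout and 5.27 and 5.43 in double knockout livers, against 3.94 and 3.97 in control livers. Control 3 was at 5.41 and double knockout 3 at 6.51. Lama2 rose by 1.57 ± 0.16 in NEMO knockout (adjusted p = 0.000214), 0.96 ± 0.16 in KEAP1 knockout (adjusted p = 0.00519) and 1.40 ± 0.17 in double knockout livers (adjusted p = 0.000614). Lama3 fell in all 3, being at 3.70, 4.13 and 3.79 in NEMO knockout, 3.80, 3.78 and 3.76 in KEAP1 knockout and 3.57 and 3.70 in double knockout livers, against 4.85 and 4.39 in control livers. The changes were -0.75 ± 0.18 in NEMO knockout (adjusted p = 0.019), -0.84 ± 0.18 in KEAP1 knockout (adjusted p = 0.0204) and -0.99 ± 0.20 in double knockout livers (adjusted p = 0.0093). Of the arrays left out, control 3 was at 3.68, with the knockouts, and double knockout 3 was at 4.28, above every other knockout liver. Lamc1 rose by 0.90 ± 0.16 in NEMO knockout (adjusted p = 0.00357), 0.60 ± 0.16 in KEAP1 knockout (adjusted p = 0.0496) and 0.87 ± 0.17 in double knockout livers (adjusted p = 0.00929).

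Itgb2 was at 7.23, 6.70 and 6.76 in NEMO knockout, 6.49, 5.66 and 6.34 in KEAP1 knockout and 6.86 and 6.87 in double knockout livers, against 5.40 and 5.15 in control livers, and at 6.75 on control 3. All knockout livers lay above controls 1 and 2. It rose by 1.62 ± 0.23 in NEMO knockout (adjusted p = 0.000961), 0.89 ± 0.23 in KEAP1 knockout (adjusted p = 0.0441) and 1.59 ± 0.25 in double knockout livers (adjusted p = 0.00231). Of its partners, Itgam rose by 0.96 ± 0.27 in NEMO knockout (adjusted p = 0.0412) and 1.50 ± 0.30 in double knockout livers (adjusted p = 0.00896), and its KEAP1 knockout change was 0.99 ± 0.27 (adjusted p = 0.0588). The difference between double and NEMO knockout livers for Itgam was not called, at 0.55 ± 0.27 (adjusted p = 0.393). Itgal rose by 0.98 ± 0.21 (adjusted p = 0.0104) and Itgax by 1.47 ± 0.32 (adjusted p = 0.0119) in NEMO knockout livers. Itgax was at 5.89, 4.67 and 5.20 there, against 3.90 and 3.67 in control livers.

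In NEMO knockout livers 6 members were called that were called in neither other knockout, namely Itga5, Itgal, Itgav, Itgax, Itgb5 and Lamb1. The share of all genes called in NEMO knockout livers only was not counted, so this split is not shown to be particular to the members. The double knockout group also kept fewer arrays. All 6 were higher on the kept double knockout livers than on the kept control livers. Itgal was at 6.05 and 6.27 in double knockout livers, against 5.21 and 5.54 in control livers. Itga5 was at 6.59, 7.03 and 7.33 in NEMO knockout, 6.36, 6.27 and 6.25 in KEAP1 knockout and 6.40 and 6.45 in double knockout livers, against 6.15 and 6.38 in control livers. The NEMO knockout livers lay above the other groups, also above control 3 at 6.42 and double knockout 3 at 6.32. Itga5 rose by 0.72 ± 0.18 in NEMO knockout (adjusted p = 0.0199) and differed by 0.16 ± 0.19 in double knockout livers (adjusted p = 0.659). Double against NEMO knockout livers gave -0.56 ± 0.18 with an adjusted p of 0.128. Itgav rose by 0.54 ± 0.11 (adjusted p = 0.00909) and its partner Itgb5, with which it binds vitronectin, by 0.72 ± 0.11 (adjusted p = 0.00146), while Lamb1 rose by 0.96 ± 0.16 (adjusted p = 0.00248). Between the double knockout and either single knockout, limma called 0 members in liver. In double against NEMO knockout livers 5 members had an unadjusted p under 0.05 with all arrays and 10 without the doubted ones, beside 11.9% and 14.8% of all genes, and calls of all genes at an adjusted p came to 1.05% and 3.46%. In double against KEAP1 knockout livers the numbers were 3 and 5, beside 7.59% and 7.35% of all genes, with 0% and 0.0531% called at an adjusted p.

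The remaining members called in liver were matrix receptors and a vessel laminin. Itga8 rose by 1.25 ± 0.20 in NEMO knockout (adjusted p = 0.00207) and 0.77 ± 0.20 in KEAP1 knockout livers (adjusted p = 0.0469), and Itga1 by 0.61 ± 0.11 (adjusted p = 0.0033) and 0.42 ± 0.11 (adjusted p = 0.0414). Itga4 rose by 1.29 ± 0.22 in NEMO knockout (adjusted p = 0.00315) and 1.02 ± 0.25 in double knockout livers (adjusted p = 0.0228), and Itga9 by 0.65 ± 0.15 (adjusted p = 0.0173) and 0.71 ± 0.17 (adjusted p = 0.0219). Lama4 rose in KEAP1 knockout livers, at 5.85, 5.88 and 5.87 against 5.29 and 5.13 in control livers (0.66 ± 0.12, adjusted p = 0.00863). The collagen receptor subunit Itga2 was at 3.29, 4.0 and 4.45 in KEAP1 knockout livers, against 2.90 and 2.77 in control livers, and rose by 1.08 ± 0.28 (adjusted p = 0.0447).

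Several of the marker lists and partners moved with the members in liver too, without the doubted arrays. Stellate cell or fibroblast markers rose in 7 of 8 cases in NEMO knockout (median 1.76), 4 in KEAP1 knockout (0.92) and 5 in double knockout livers (1.42). Pan-leukocyte markers rose in 3 of 3 cases in NEMO knockout, 1 in KEAP1 knockout and 2 in double knockout livers, and macrophage markers in 5 of 7 cases in NEMO knockout, 1 in KEAP1 knockout and 5 in double knockout livers. Over all arrays, stellate markers averaged 7.41 to 8.02 in NEMO knockout, 6.45 to 6.97 in KEAP1 knockout and 7.09 to 8.18 in double knockout livers, against 5.81 to 7.14 in control livers, and bile duct markers reached 6.99 in the double knockout group, on the array that also held Itgb4, Itga3 (6.94) and Lama5 (5.83) above the rest of its group. Their part in the results was not tested. Of 18 integrin ligands, 9 rose in NEMO knockout, 8 in KEAP1 knockout and 8 in double knockout livers, led by Col1a1 at 2.89 ± 0.21 in NEMO knockout, 1.33 ± 0.21 in KEAP1 knockout and 2.23 ± 0.23 in double knockout livers. Of 10 basement membrane partners, 5 rose in NEMO knockout and 3 in KEAP1 knockout, and 5 rose and 1 fell in double knockout livers. Of 26 adhesion complex partners, 10 rose and 1 fell in NEMO knockout, 3 rose and 1 fell in KEAP1 knockout, and 8 rose and 1 fell in double knockout livers.

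The NEMO knockout change was also compared between sources. For the liver change less the hepatocyte change, limma called 0 members, with 3 at an unadjusted p under 0.05 with all arrays and 6 without the doubted ones, beside 9.46% and 12.3% of all genes. Calls of all genes at an adjusted p came to 0.0691% and 0.0638%. The 3 were Lama1 (-0.68 ± 0.18, adjusted p = 0.186), Itgb3 (-1.04 ± 0.31, adjusted p = 0.267) and Itgax (1.05 ± 0.46, adjusted p = 0.477). Lama1 was at 4.63, 4.96 and 4.66 in NEMO knockout livers, against 4.61, 4.79 and 4.90 in control livers, which overlap, whereas its hepatocyte groups did not.

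Cultured hepatocytes had less of many members than whole liver of the same genotype, and no member was called higher. In NEMO knockout 9 members were lower in hepatocytes, in KEAP1 knockout 8, in double knockout 5 and in control 12, where 2.68%, 2.02%, 1.79% and 3.84% of all genes were called lower. Without the doubted arrays the counts were 14, 18, 3 and 10, where 5.81%, 5.27%, 0.616% and 2.33% were called lower. Itga8, Lama2, Lamb1 and Lamc1 were lower in hepatocytes in all 4 genotypes, and all but Lamc1 were so without the doubted arrays. The share of all genes called lower in all 4 genotypes was not counted. Tissue and culture, as well as the cells lost in isolation, cannot be told apart here.

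**Figure D5:**
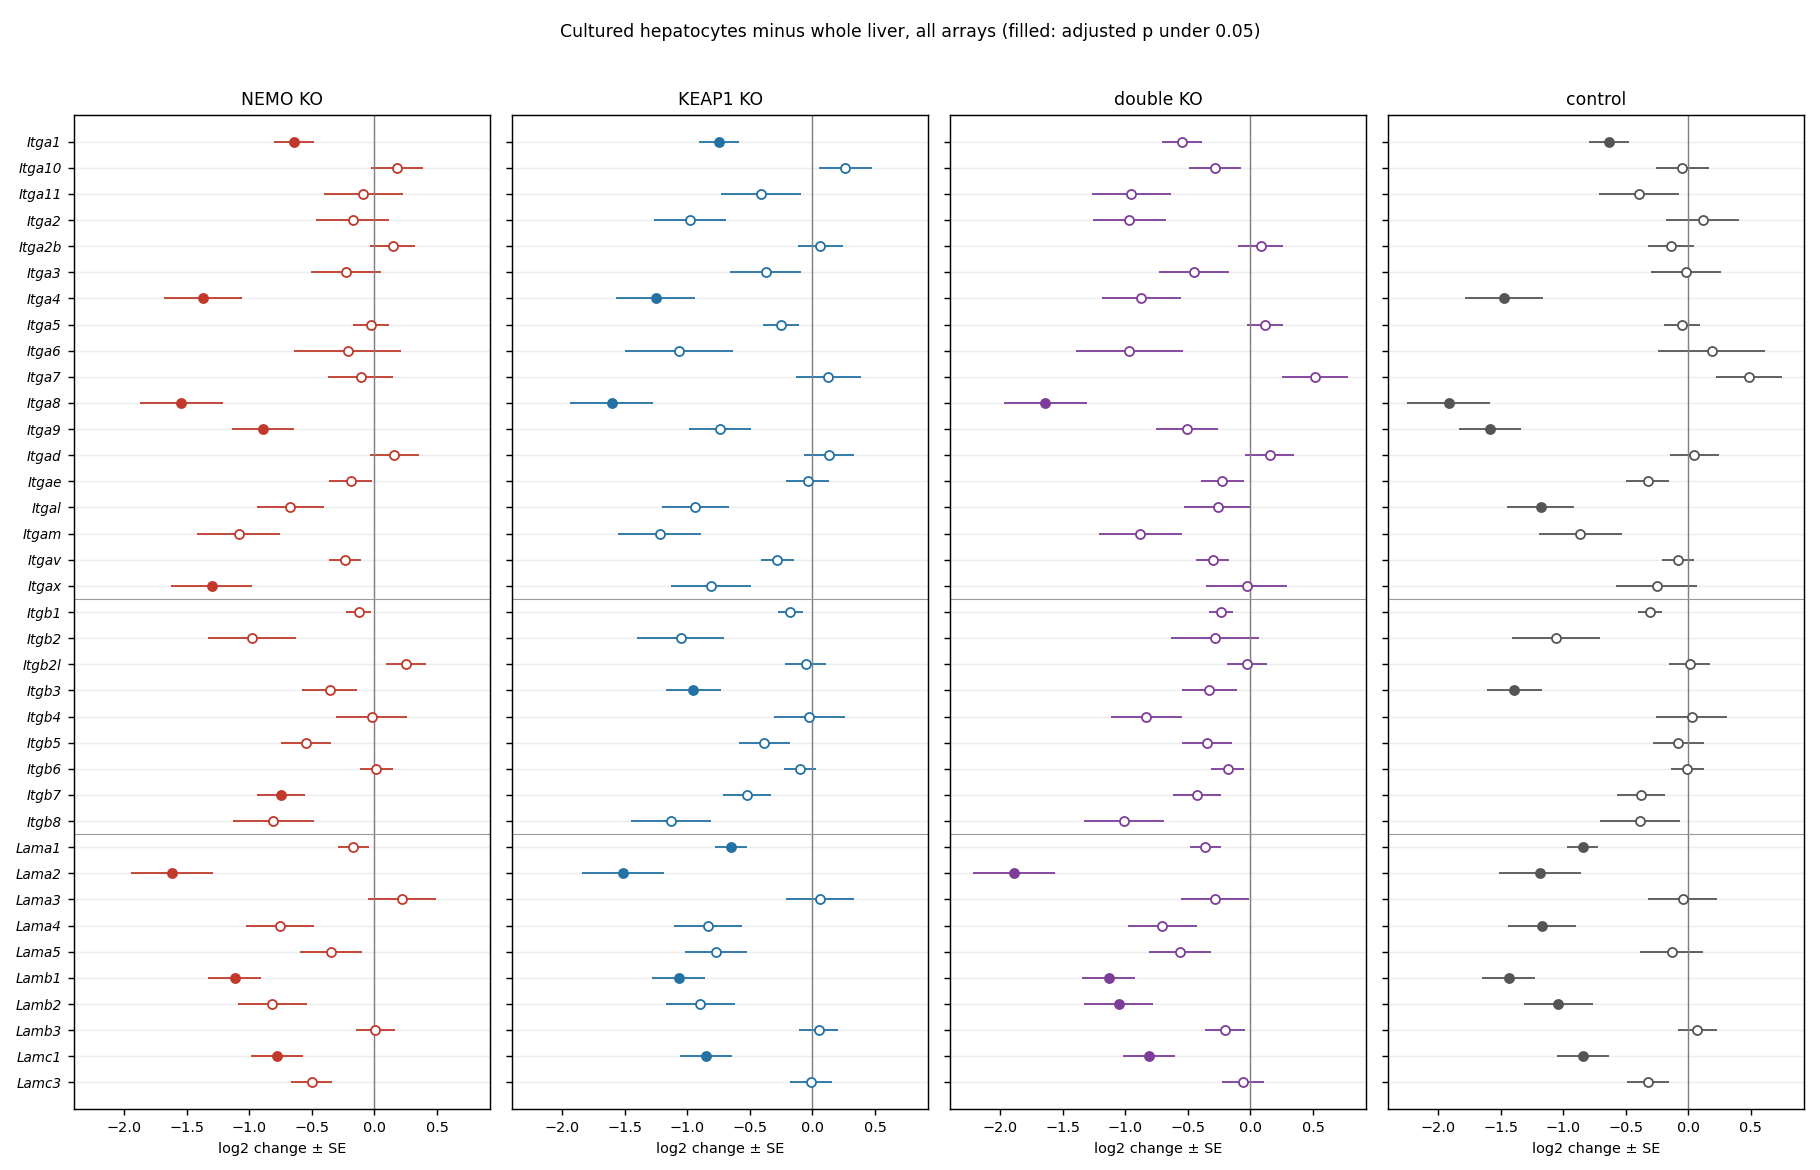
Log2 difference of every member, hepatocytes minus liver of the same genotype, with its standard error, all arrays, one panel per genotype; filled symbols mark members called by limma at an adjusted p under 0.05. Called members lie below 0 in all 4 panels, 9 in NEMO knockout, 8 in KEAP1 knockout, 5 in double knockout and 12 in control.

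Lama2 was at 3.89, 4.20 and 3.66 in NEMO knockout hepatocytes, against 5.59, 5.25 and 5.75 in NEMO knockout livers, a difference of -1.62 ± 0.33 (adjusted p = 0.00866). In controls it was at 3.40, 3.40 and 2.97 in hepatocytes, against 3.94, 3.97 and 5.41 in liver (-1.19, adjusted p = 0.0375). Without the doubted arrays the control difference was -0.77 (adjusted p = 0.0408). Lamb1 differed by -1.12 in NEMO knockout (adjusted p = 0.00584), -1.07 in KEAP1 knockout (adjusted p = 0.00757), -1.13 in double knockout (adjusted p = 0.00569) and -1.44 in control (adjusted p = 0.000172). Itga8 differed by -1.54 in NEMO knockout (adjusted p = 0.0128), -1.61 in KEAP1 knockout (adjusted p = 0.0102), -1.64 in double knockout (adjusted p = 0.00942) and -1.92 in control (adjusted p = 0.000881). Stellate cell or fibroblast markers were lower in hepatocytes than in liver in 7 of 8 cases in NEMO knockout, 6 in KEAP1 knockout, 7 in double knockout and 6 in control.

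Control hepatocytes, which enter the knockout comparisons above, had the most members called lower than in liver with all arrays. Itgb3 was at 3.52, 3.72 and 3.78 in control hepatocytes, against 5.05, 4.90 and 5.25 in control livers, a difference of -1.39 (adjusted p = 0.000334). It was lower in KEAP1 knockout hepatocytes too (-0.95, adjusted p = 0.021). Itga9 differed by -1.59 in controls (adjusted p = 0.000316) and -0.89 in NEMO knockout (adjusted p = 0.0487), Itgal by -1.18 (adjusted p = 0.00931) and Lama4 by -1.17 (adjusted p = 0.0122) in controls. The control calls of Itgal and Lamc1 were lost without the doubted arrays, at -0.74 (adjusted p = 0.233) and -0.53 (adjusted p = 0.0992). Endothelial markers were lower in 6 of 6 cases in control hepatocytes against control liver, 0 in NEMO knockout, 2 in KEAP1 knockout and 0 in double knockout. Macrophage markers were lower in 6 of 7 cases in control, 0 in NEMO knockout, 1 in KEAP1 knockout and 0 in double knockout. Few calls held under every left-out array, at 1 of 9 in NEMO knockout (Lamb1), 0 of 8 in KEAP1 knockout, 2 of 5 in double knockout (Lama2 and Lamb1) and 5 of 12 in control (Itga8, Itga9, Itgb3, Lama1 and Lamb1).

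Over the 15 comparisons, with or without the doubted arrays, 25 of the 37 members were called at least once and 12 were never called, and 28.9% of all genes were called at least once. These comparisons share arrays. The 12 were Itga2b, Itga3, Itga7, Itga10, Itga11, Itgad, Itgae, Itgb2l, Itgb4, Itgb6, Lamb3 and Lamc3. Among them are the platelet subunit Itga2b, the muscle laminin receptor Itga7 and the fibroblast collagen receptor Itga11, which was at 2.48 to 3.76 on every array but liver double knockout 3, at 5.03.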

How the data were processed

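The authors deposited log2 values for each probe set on each array, which RMA produced according to the submitters' processing notes. RMA's version and options were not stated there. The lowest value was 0.51 and the highest 13.62, and the medians of the arrays lay between 4.03 and 4.23. No read depth exists for arrays, and 3 arrays per group limit the precision.

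Of 35556 probe sets, the platform annotation gave 21218 a single symbol, and only these were used. A gene with several probe sets was represented by the one with the highest mean over all 24 arrays, for 18820 genes in all, and low values were not filtered out. Among the members, Itgb1 alone had a choice of probe sets. A RefSeq table (GRCm38.p6) was used to update symbols, which left the members' symbols as they were.

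Groups were compared with lmFit and trended eBayes of limma 3.58.1 (R 4.3.3) in two-sided tests, adjusted with Benjamini-Hochberg over all 18820 genes, with calls made below an adjusted p of 0.05. Each contrast within a source used its 12 arrays, and comparisons between sources used all 24. Scripts were tested on simulated data. The alternatives were leaving out the 4 doubted arrays, leaving out each array in turn, no intensity trend, only genes with a mean log2 value of at least 4, the mean of all probe sets, quantile normalization, the replicate number as a block, and only the arrays of the compared groups.

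Same-numbered arrays of double knockout and control livers deviated together, with correlations of 0.12, 0.14 and 0.23 for numbers 1, 2 and 3, so the blocked count is given beside that comparison. The labels do not say what a shared number means, and number 3 joins 2 doubted arrays.

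Named in each comparison were the called members, up to the 12 with the largest absolute change, and their dimer or trimer partners. Partner lists (adhesion complex, basement membrane, integrin ligands) and cell type markers were taken from general knowledge. The members and lists were chosen with earlier results of these data known. Promoter windows were read from a RefSeq table of the same assembly.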

Additional observations from a re-analysis of the deposited data

Results flagged for a closer look

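Lama5, the alpha chain of epithelial basement membranes, had mean changes of opposite sign in liver and hepatocytes of KEAP1 knockouts. It was flagged by a search of all 37 members, in KEAP1 and double knockouts, for groups apart in opposite directions. How many of all genes would meet that rule was not counted. Lama5 was at 4.75, 4.54 and 5.04 in KEAP1 knockout livers, against 4.36, 4.33 and 4.43 in control livers. Every KEAP1 knockout liver lay above every control liver. In hepatocytes it was at 3.86, 4.01 and 4.16 in KEAP1 knockout cells, against 4.17, 4.24 and 4.30 in control cells. Every KEAP1 knockout array lay below every control array, the nearest values being 4.16 and 4.17. The change in liver minus that in hepatocytes was 0.63. This difference was not tested, and neither change was called by limma, at 0.40 ± 0.31 in liver (adjusted p = 0.746) and -0.23 ± 0.13 in hepatocytes (adjusted p = 0.478).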

How the results depend on the processing

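Counts of called members are given for all arrays unless an alternative is named. Shares of all genes called are not given beside the counts in this section. A change in a count is therefore not shown to be particular to the members. Without the 4 doubted arrays the counts were 16 in NEMO, 9 in KEAP1 and 8 in double knockout against control livers, where all arrays gave 0 in each. In the same setting 7 were called in double against KEAP1 knockout hepatocytes, beside 3, and for hepatocytes against liver 14 in NEMO knockout, beside 9, 18 in KEAP1 knockout, beside 8, and 3 in double knockout, beside 5. With only genes of mean log2 of at least 4, NEMO knockout livers and KEAP1 knockout hepatocytes had 1 call each, beside 0. After quantile normalization double against NEMO knockout hepatocytes had 2 calls, beside 1, and NEMO knockout hepatocytes against liver had 4, beside 9. Fitting the compared groups alone gave 2 in double against NEMO knockout hepatocytes. With the replicate number as a block the counts were 4 in NEMO and 4 in double knockout livers, 1 in KEAP1 knockout hepatocytes and 2 in double against NEMO knockout hepatocytes. In the comparisons not named here the block kept the count within 1.5 times, and the pairing check was met for double knockout against control livers only. For the other results the cause was not tested. No called change turned its direction under any alternative.

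With each array left out in turn, liver counts ran from 0 to 9 in NEMO, 0 to 1 in KEAP1 and 0 to 9 in double knockout against control, 0 to 1 in double against NEMO knockout and 0 to 0 in double against KEAP1 knockout. Hepatocyte counts ran from 6 to 13 in NEMO, 0 to 2 in KEAP1 and 11 to 14 in double knockout against control, 0 to 2 in double against NEMO knockout and 1 to 6 in double against KEAP1 knockout. For hepatocytes against liver they ran from 1 to 13 in NEMO knockout, 2 to 14 in KEAP1 knockout, 2 to 9 in double knockout and 5 to 13 in control, and for the change in liver minus hepatocytes from 0 to 0. Single members were followed in 117 pairs of member and comparison, called with all arrays or without the 4 doubted ones. A pair uncalled with all arrays thus counts as the same when it stayed uncalled. Direction and call were the same in 114 pairs without the intensity trend, and 3 were no longer called. After quantile normalization 100 were the same, 15 were no longer called and 2 became called. With the mean of all probe sets 115 were the same and 2 were no longer called. With the block 103 were the same, 12 became called and 2 were no longer called. Without the 4 doubted arrays 54 were the same, 54 became called and 9 were no longer called, but that setting also chose the pairs. Members near an array's background have understated changes, and groups left with 2 arrays borrow their spread from the other groups.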
